A study of Homo sapiens with 2 samples.

Results

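A list of 48 DNA repair genes was examined, out of 20033 protein-coding genes in the GENCODE annotation. The genes were listed by name for their repair pathways. For each gene the peaks within 1 kb of the transcription start site (TSS) of its canonical transcript were read from 2 lists of accessible regions. The lists came from ATAC-seq, which uses the Tn5 transposase to cut and tag open chromatin. The cells were wild-type, untreated B2B (BEAS-2B), an immortalized and non-cancerous line of human bronchial epithelial cells, in 2 biological replicates. No other condition was analysed, so the genes are described by their values in both replicates and set beside all protein-coding genes, with no test between groups. As a check of the label, 1 of 12 epithelial marker genes (KRT18, a simple-epithelium keratin) had a promoter peak in both replicates, against 9 of 12 mesenchymal marker genes. Those shares were 8.33% and 75%, beside 52.2% of all protein-coding genes. CDH1, EPCAM, KRT5 and the other epithelial markers had none, and the KRT18 peak was faint (5.02 and 6.34 in fold enrichment) with its summit 752 and 746 bp downstream of the start site. The 9 mesenchymal peaks were also low, with median fold enrichments of 7.43 and 7.02 against 8.14 and 9.64 for all protein-coding genes. Their summits lay a median of 416 and 418 bp from the start site, which 4 of the 9 covered in both replicates. The epithelial label was thus not borne out by these markers.

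DNA repair is divided among pathways that each act on a kind of lesion. Mismatch repair corrects replication errors, base excision repair removes small damaged bases, and nucleotide excision repair cuts out bulky adducts and ultraviolet photoproducts. Double-strand breaks are rejoined either by end joining, which ligates the ends directly, or by homologous recombination, which copies an intact sister sequence. The Fanconi anaemia proteins unhook crosslinks between strands, RecQ helicases unwind recombination intermediates, and checkpoint kinases halt the cell cycle while repair proceeds. Many of these genes are transcribed in most tissues from promoters rich in CpG.

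In B2B cells, 41 of the 48 genes had a promoter peak in both replicates, a share of 85.4% (95% Wilson interval 72.8 to 92.8). Over all protein-coding genes the share was 52.2%. By replicate, 41 genes had a peak in replicate 1 and 46 in replicate 2, against 53.2% and 57.9% of all protein-coding genes. The lists differed in the share of promoters in CpG islands. Of the 48 repair promoters, 46 met the criteria of a CpG island, against 64.8% of all protein-coding promoters. Typical CpG content differed little, with a median of 70.5 CpGs in repair promoters and 66 in all protein-coding promoters. The median GC content was 59.99% and 61.3%. Among promoters in CpG islands, the repair genes had fewer CpGs, with a median of 71 against 84 for all protein-coding genes. Among protein-coding genes in CpG islands the share with a peak in both replicates was 73%, and 39 of the 46 repair genes in CpG islands (84.8%, interval 71.8 to 92.4) had one. The exceptions to the island criteria were LIG4 and CHEK1, and both had peaks in both replicates.

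Peak height was read as fold enrichment, the ratio of sequenced fragments over the peak summit to the local background, with 1 added to each. For the 41 genes with a peak in both replicates, the tallest peak at each promoter had a median enrichment of 9.53 in replicate 1 and of 12.1 in replicate 2. Their mean was 10.8 ± 1.79 (SD, n = 2). All protein-coding genes with such peaks had medians of 8.14 and 9.64, or 8.89 ± 1.06 (SD, n = 2). The difference between the medians was about the size of the spread between replicates, although it had the same direction in each of them. Of the 41 repair genes, 31 lay above the median of all protein-coding genes, 16 above the upper quartile and 2 below the lower quartile. The order of the genes was similar in both replicates, with a Spearman correlation of 0.831 across the 41 genes, which share both libraries. Fold enrichment was higher in replicate 2 for 27 of the 41 genes (65.9%), as it was for 71.5% of all protein-coding genes.

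**Figure D1:**
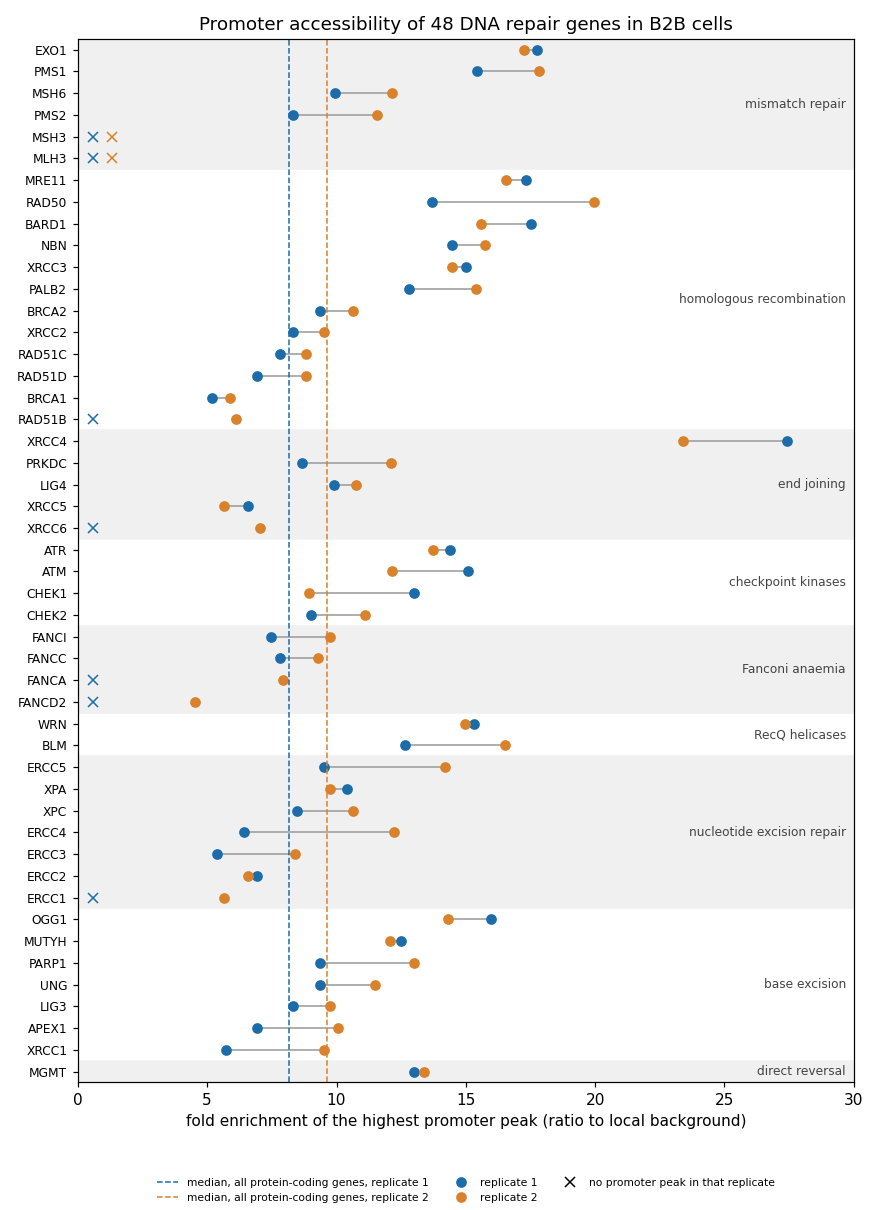
Fold enrichment of the highest promoter peak (horizontal axis, ratio to local background) of each of the 48 genes, by pathway, in replicate 1 (blue) and replicate 2 (orange), with crosses for a replicate without a promoter peak and dashed lines at the medians of all protein-coding genes. XRCC4 stands above all others at 27.4 and 23.4, and only MSH3 and MLH3 have crosses for both replicates.

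Precision was set by the number of fragments over each summit, worked back from the height and p-value of the peak. The 41 genes had a median of 54 fragments in replicate 1 and 58 in replicate 2, and the range over both was 24 to 233. The faintest peak in the lists had 16 fragments at its summit in replicate 1 and 13 in replicate 2. Fragments at promoters without a peak were not measured, so the absence of a peak does not show closed chromatin.

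Of the 6 mismatch repair genes, 4 had promoter peaks in both replicates and 2 had none. EXO1, the exonuclease that removes the strand carrying the error, had a fold enrichment of 17.8 in replicate 1 and 17.3 in replicate 2, among the highest of the list. PMS1, a MutL homologue, reached 15.4 and 17.8. For PMS2, a MutL homologue with endonuclease activity, the values were 8.32 and 11.6. MSH6, which recognises single-base mismatches, had 9.93 and 12.2. Both EXO1 replicates held a smaller second peak downstream of the TSS, at 4.64 and 4.02. Additional promoter peaks were also called for MSH6 in replicate 2 (6.97) and for PMS1 in replicate 1 (4.44). Across these 4 genes the median was 13.7 ± 1.44 (SD, n = 2).

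MSH3 and MLH3 were the genes without a promoter peak in either replicate, although both promoters met the CpG island criteria. MSH3 recognises larger insertion and deletion loops, and MLH3 acts in meiotic recombination. At MLH3 the nearest peaks lay 12.5 kb upstream, at the promoter of ACYP1, and more than 48 kb downstream, at EIF2B2. MSH3 had a peak 2885 bp upstream of its TSS in replicate 1 and 2882 bp upstream in replicate 2. Its heights were 20.5 and 20.3. This peak was unlike any other described here. It had 150482 and 100109 fragments at its summit, over a local background of 7343 and 4920 fragments, where the median background at the summits of the repair genes was 4.77 and 3.78. Its sequence (chr5:80650411-80651767 on hg38 in replicate 1) matched mitochondrial DNA over 1348 bp at 96.1% identity, and over 1365 bp at 95.9% for the slightly longer peak of replicate 2. None of the 110 promoter peaks of the repair genes matched mitochondrial DNA. Whether the upstream peak bears on the missing MSH3 promoter peak was not tested.

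Homologous recombination had the most members, and 11 of 12 had a promoter peak in both replicates, with a median fold enrichment of 13.7 ± 1.18 (SD, n = 2). The 3 genes of the complex that senses broken ends were all well above the median of protein-coding genes. MRE11, its nuclease, had 17.3 and 16.5. RAD50, its ATPase, had 13.7 in replicate 1 and 19.9 in replicate 2, with 78 and 87 fragments. NBN, the subunit that recruits ATM, had 14.5 and 15.7. All 3 thus had neighbouring values, and the spread of RAD50 alone (16.8 ± 4.42, SD, n = 2) covered the others.

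The BRCA group ranged from the lowest mean of the list to one of the 6 highest. BARD1, the obligate partner of BRCA1, had 17.5 and 15.6, with 214 and 193 fragments at the summit. PALB2, which bridges BRCA1 and BRCA2, had 12.8 and 15.4. BRCA2, which acts at resected ends in strand exchange, had 9.36 and 10.6. BRCA1 itself had the lowest mean of all genes with 2 peaks, at 5.20 and 5.89 (5.54 ± 0.490, SD, n = 2), with 29 and 25 fragments. The BRCA1 peaks were narrow as well, at 234 and 256 bp, against 947 and 878 bp for BARD1.

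The other genes of strand exchange, RAD51B, RAD51C, RAD51D, XRCC2 and XRCC3, were mostly near or below the median of protein-coding genes. RAD51C had 7.80 and 8.84. RAD51D had 6.93 and 8.84, and XRCC2 had 8.32 and 9.52. RAD51B had a peak in replicate 2 alone, with a fold enrichment of 6.12 and 26 fragments. XRCC3 differed from the other 4, with 15.0 and 14.5. It also had a small upstream peak in both replicates, at 3.63 and 3.47, 849 and 860 bp before the TSS. RAD50 and BARD1 each had a further small peak in replicate 2, at 3.85 and 2.73.

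Among the 5 end-joining genes, XRCC4 had the tallest promoter peak of the whole list. XRCC4 is the scaffold that holds DNA ligase IV at the ends. Its fold enrichment was 27.4 and 23.4 (25.4 ± 2.84, SD, n = 2), with 233 and 171 fragments, and it ranked 10 among 10461 protein-coding promoters with peaks in both replicates. XRCC4 lies on chromosome 5 beyond 80 Mb, where summits had a median of 43 and 37 fragments against 35 and 30 elsewhere in the 2 lists. Within that stretch it ranked 1 among 383 promoters, and the part of the raised fragment number in its height was not tested. RAD50, the other gene with peaks in this stretch, ranked 60 among the same 383.

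The remaining end-joining genes were well below XRCC4. LIG4, the ligase itself, had 9.88 and 10.8 at a promoter just outside the CpG island criteria. PRKDC, the catalytic subunit of DNA-PK, had 8.66 and 12.1, but these summits lay 766 and 664 bp upstream and close to the neighbouring gene MCM4. A second peak covered the PRKDC TSS, with 5.89 and 4.30. XRCC5 and XRCC6 encode the Ku80 and Ku70 subunits that encircle broken ends. XRCC5 had 6.58 and 5.66, the second lowest mean of the list (6.12 ± 0.650, SD, n = 2). XRCC6 had a peak in replicate 2 alone, with 7.02 and 30 fragments. Both Ku genes therefore lay below the median of protein-coding genes in every replicate that had a peak.

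All 4 checkpoint kinases had peaks in both replicates, with a median of 12.7 ± 1.46 (SD, n = 2). ATM, which responds to double-strand breaks, had 15.1 and 12.1. ATR, which responds to single-stranded DNA at stalled forks, had 14.4 and 13.7. CHEK2, a target of ATM, had 9.01 and 11.1, and a further upstream peak of 7.45 in replicate 1. CHEK1, a target of ATR, had 13.0 and 8.94, with summits at 1094 and 1091 bp downstream of the canonical TSS. These summits were 28 and 25 bp from another annotated TSS of CHEK1.

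The Fanconi anaemia genes had the lowest median of the pathways, 8.57 ± 1.34 (SD, n = 2), over the 2 genes with peaks in both replicates. FANCA, of the core complex, had a peak in replicate 2 alone, with 7.93 and 34 fragments. FANCD2, which is ubiquitinated at crosslinks, had its only peak in replicate 2, with 4.53 and 19 fragments, close to the detection limit of that list. Its partner FANCI had 7.45 and 9.74, plus a second peak of 4.08 in replicate 2. FANCC had 7.80 and 9.30, at summits 318 and 734 bp downstream of the TSS, and a smaller peak of 5.02 and 5.18 over the TSS. With 2 of 4 genes called in both replicates, the Wilson interval ran from 15.0% to 85.0%, which includes the 52.2% of all protein-coding genes. The 9 other Fanconi genes examined, which were not on the list of 48, all had a peak in both replicates.

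Both RecQ helicases had tall peaks. BLM, mutated in Bloom syndrome, had 12.6 and 16.5. WRN, mutated in Werner syndrome, had 15.3 and 15.0. Smaller downstream peaks were called for WRN in both replicates (5.19 and 5.20) and for BLM in replicate 2 (4.06).

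Nucleotide excision repair genes lay near the median of protein-coding genes, at 8.95 ± 1.76 (SD, n = 2). ERCC5, the nuclease that cuts 3′ of the lesion, was the highest, at 9.53 and 14.2. XPA, which verifies the damage, had 10.4 and 9.74, with a second peak of 4.08 in replicate 2. XPC, the damage sensor, had 8.49 and 10.6. ERCC4 forms the 5′ nuclease with ERCC1. ERCC4 had 6.41 in replicate 1 and 12.2 in replicate 2, a ratio of 1.91 that was the largest between replicates in the list. ERCC1 had a peak in replicate 2 alone, with 5.66 and 24 fragments. The TFIIH helicase subunits were low, at 5.37 and 8.38 for ERCC3, a ratio of 1.56. ERCC2, the other helicase of TFIIH, had 6.93 and 6.57. Across the 6 genes with peaks in both replicates the Spearman correlation between replicates was 0.314, so their order was not stable.

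All 7 genes of base excision and single-strand break repair had peaks in both replicates, with a median of 10.4 ± 1.52 (SD, n = 2). OGG1, the glycosylase for 8-oxoguanine, was the highest, at 16.0 and 14.3. MUTYH, which removes adenine opposite 8-oxoguanine, followed with 12.5 and 12.1, and had a further peak of 3.98 in replicate 1. PARP1, the sensor of strand breaks, had 9.36 and 13.0. UNG, the uracil glycosylase, had 9.36 and 11.5 at summits 428 and 454 bp downstream of the TSS. A lower UNG peak near the canonical TSS had 3.47 and 4.56. LIG3, a ligase of nuclear and mitochondrial DNA, had a pair of peaks in each replicate, and the taller one lay at 36 bp in replicate 1 (8.32) and at 684 bp in replicate 2 (9.74). APEX1, the endonuclease for abasic sites, had 6.93 and 10.04. XRCC1, the scaffold of single-strand break repair, was the lowest of the group, at 5.72 and 9.52, a ratio of 1.66. MGMT, which reverses alkylation of guanine directly, had closely matching values of 13.0 and 13.4.

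Differences between replicates over 1.5 times were thus seen for ERCC4, XRCC1 and ERCC3, 3 of 41 genes (7.32%), against 14.0% of all protein-coding genes. In all 3 the higher value was that of replicate 2.

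Peaks of the repair genes were slightly wider than those of all protein-coding promoters, with a median of 560 and 653 bp (606.5 ± 65.8, SD, n = 2) against 478 and 562 bp (520 ± 59.4). The summit lay a median of 96 and 108 bp from the TSS, against 100 and 101 bp for all protein-coding genes. It was upstream of the TSS for 34 of 41 genes in replicate 1 and 30 in replicate 2, or 82.9% and 73.2%, against 76.3% and 74.9% of all protein-coding genes. The highest peak covered the canonical TSS in both replicates for 34 of the 41 genes (82.9%, against 77.9%). The position of the summit therefore did not set the repair genes apart.

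In 8 genes the summit was more than 300 bp from the canonical TSS in at least 1 replicate, namely APEX1, BARD1, CHEK1, FANCC, LIG3, NBN, PRKDC and UNG. At NBN, UNG and CHEK1 the summits of both replicates lay within 100 bp of an alternative TSS. NBN summits were 9 and 33 bp from an annotated TSS 425 bp downstream of the canonical one. UNG summits were 93 and 67 bp from the TSS 521 bp downstream. The CHEK1 TSS near both summits was 1066 bp downstream of the canonical one. FANCC summits were 137 and 42 bp from 2 alternative start sites, 455 and 776 bp downstream. ATAC-seq does not measure which of these start sites was used.

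**Figure D2:**
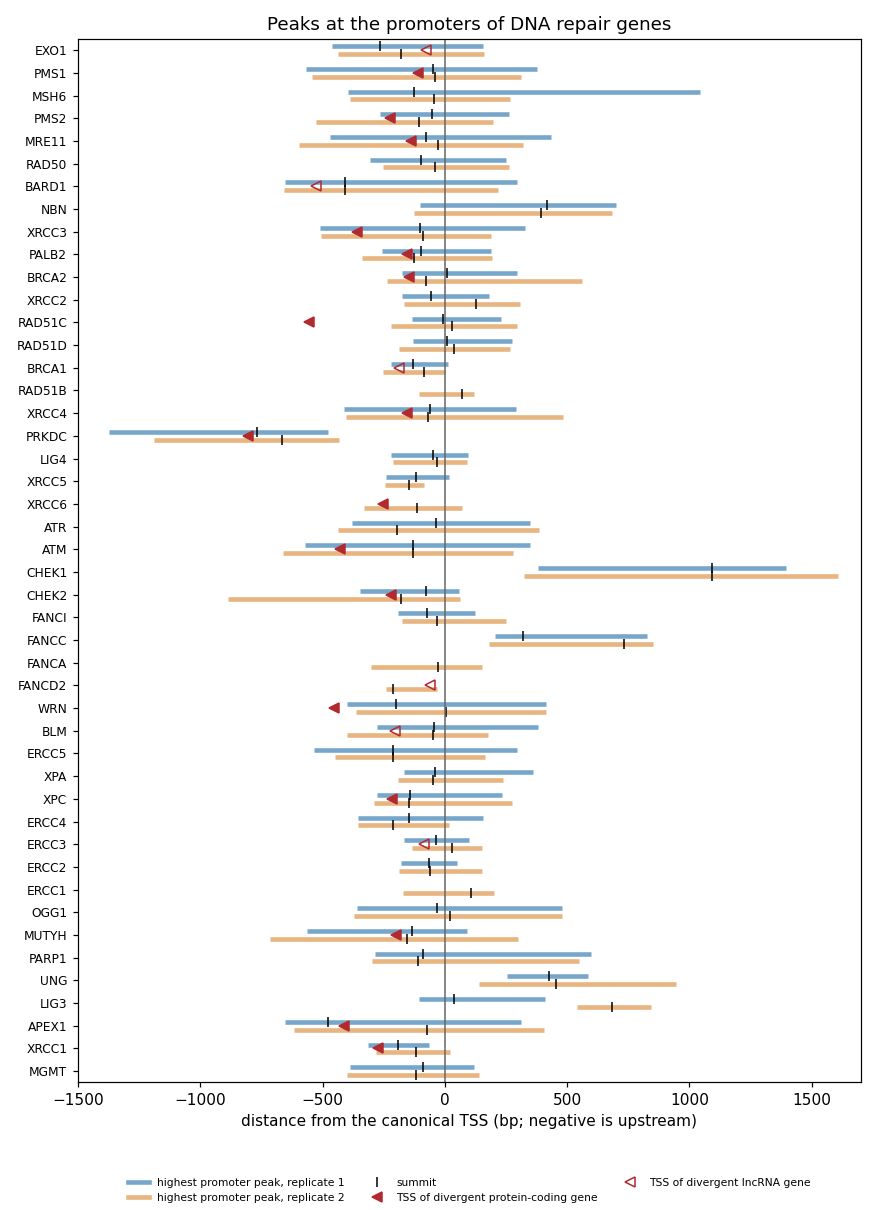
Extent of the highest promoter peak of 46 genes in replicate 1 (blue) and replicate 2 (orange) against distance from the canonical TSS in bp, with black ticks at summits and triangles at the TSS of a divergent neighbour (filled, protein-coding; open, lncRNA). Most bars cross the TSS, while those of CHEK1, FANCC and UNG lie downstream and those of PRKDC lie upstream.

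A frequent feature of the repair promoters was a divergent neighbour, a gene on the other strand whose TSS lies upstream by at most 1 kb. Both genes of such a pair can share an accessible region. A peak was counted as shared where it touched the 1 kb around both TSSs, whether or not it covered them. A protein-coding neighbour was annotated for 17 of the 48 genes, and 16 of these shared a peak with it in both replicates. The share of 33.3% compared with 8.26% of all protein-coding genes and 11.8% of those in CpG islands. With neighbours of any gene type, 21 genes (43.8%) shared a peak, against 15.9% of all protein-coding genes and 23.1% of those in CpG islands. Presence of a neighbour is a property of the annotation, and 87.3% of all protein-coding genes with such a neighbour had a promoter peak in both replicates. All 1655 of these with a peak in both replicates also counted as sharing it, as did the 16 repair genes. The shares therefore restate the annotation and the presence of a peak, and are no separate evidence of a common accessible region. The 109 other repair genes examined had a similar share of 28.4% with a protein-coding neighbour.

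The pairs joined repair genes to genes of many roles. In the mismatch group, PMS1 lay 111 bp from ORMDL1, a regulator of sphingolipid synthesis, and PMS2 lay 223 bp from AIMP2, a scaffold of tRNA synthetases. In recombination, MRE11 paired with ANKRD49 at 140 bp, BRCA2 with ZAR1L at 145 bp, PALB2 with the dynactin subunit gene DCTN5 at 156 bp and XRCC3 with ZFYVE21 at 359 bp. RAD51C faced TEX14 and IGBP1C, whose TSSs coincide, at 557 bp. XRCC4 paired with TMEM167A at 153 bp, and PRKDC with MCM4, a subunit of the replicative helicase, at 805 bp. ATM faced NPAT, an activator of histone gene transcription, at 429 bp, and CHEK2 faced HSCB, a co-chaperone of iron-sulfur cluster assembly, at 219 bp. WRN lay 454 bp from PURG. XPC lay 216 bp from LSM3, of the spliceosomal U6 particle. MUTYH was 200 bp from TOE1, an RNA deadenylase, APEX1 was 414 bp from OSGEP, a tRNA-modifying enzyme, and XRCC1 was 274 bp from PINLYP. XRCC6 shared its peak with DESI1, 252 bp away, in replicate 2 alone.

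For these 16 pairs the median distance between the TSSs was 221 bp, against 243 bp for all 1655 such protein-coding genes. In 12 of the 16 the summit lay between the TSSs in both replicates (75%, against 65.1%), and in 12 the peak covered both TSSs in both replicates (75%, against 67.0%). The 16 genes had a median fold enrichment of 11.5 ± 0.830 (SD, n = 2). The 25 repair genes with peaks but no such neighbour had 10.5 ± 1.39. The difference was within the spread between replicates, but that spread includes a shift between the libraries that both lists share. By replicate the medians were 10.9 and 12.1 against 9.53 and 11.5, a small difference of the same direction in each. Among lncRNA neighbours, BRCA1 shared its peak with NBR2 at 187 bp, BARD1 with SNHG31 at 526 bp and BLM with CRTC3-AS1 at 205 bp. EXO1 and ERCC3 shared theirs with unnamed lncRNA genes 76 and 83 bp away. FANCD2 had an lncRNA neighbour at 60 bp and a shared peak in replicate 2 alone.

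**Figure D3:**
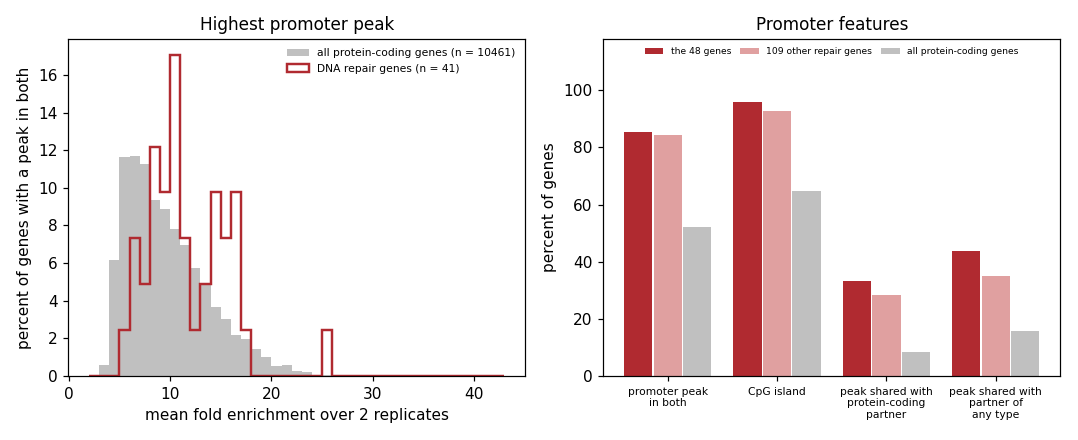
Left, distribution of the mean fold enrichment over 2 replicates for 10461 protein-coding genes (grey) and 41 repair genes (red line) with a peak in both. Right, percent of genes with each promoter feature, where the bars for a peak shared with a protein-coding neighbour stand at 33.3% for the 48 genes, 28.4% for the 109 other repair genes and 8.26% for all protein-coding genes.

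The DNA between the paired start sites is shown for 4 genes whose peak covered both TSSs in both replicates, because these short spans carry the accessible sequence of both genes. Each is the hg38 reference on the strand of the repair gene, restricted to the part outside all annotated exons, and capitals mark matches to the motifs listed in the next paragraph other than the GC box, where ATTGG is the CCAAT box read on the other strand. The span of PMS2 and AIMP2 (chr7:6009131-6009254, minus strand) holds a CRE motif, TGACGTCA, between 2 CCAAT boxes. That of MRE11 and ANKRD49 (chr11:94493886-94493978, minus strand) also holds 2 CCAAT boxes, 1 on each strand. The span of BRCA2 and ZAR1L (chr13:32315364-32315504, plus strand) holds an ETS motif, read CCGGAAGT on the other strand. PALB2 and DCTN5 (chr16:23641322-23641465, minus strand) have 1 CCAAT box near the PALB2 end.
PMS2: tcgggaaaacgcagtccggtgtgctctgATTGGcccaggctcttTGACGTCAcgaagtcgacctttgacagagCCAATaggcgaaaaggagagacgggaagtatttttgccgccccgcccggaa
MRE11: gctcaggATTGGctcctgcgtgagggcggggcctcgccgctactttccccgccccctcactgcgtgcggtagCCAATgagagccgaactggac
BRCA2: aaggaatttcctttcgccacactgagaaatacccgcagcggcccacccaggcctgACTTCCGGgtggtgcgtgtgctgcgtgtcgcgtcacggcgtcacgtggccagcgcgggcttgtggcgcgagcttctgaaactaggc
PALB2: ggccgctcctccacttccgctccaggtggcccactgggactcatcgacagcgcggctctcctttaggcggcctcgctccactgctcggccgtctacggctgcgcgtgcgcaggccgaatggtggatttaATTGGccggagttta

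Motifs were searched as exact matches on both strands of the reference, from 250 bp before to 50 bp after the canonical TSS. The letters were GCATGCGC for NRF1, CCGGAAGT for ETS factors, CCAAT for the CCAAT box and GGGCGG for the GC box, the E2F spellings TTTGGCGC, TTTCCCGC and TTTCGCGC, and TGACGTCA for CRE. AP-1 was searched as TGACTCA and, as a second spelling, as TGAGTCA. NRF1 and ETS factors drive many housekeeping genes, E2F factors drive genes of the S phase, and AP-1 is a dimer of JUN and FOS proteins. A match describes the letters and is not evidence that a factor was bound.

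An E2F match was present in 8 of the 48 promoters (16.7%), against 3.71% of all protein-coding promoters and 4.89% of those in CpG islands. The 8 genes were MSH3, MSH6, EXO1, XRCC2, XRCC6, FANCC, FANCD2 and XPC. NRF1 matches were present in 7 (14.6%, against 4.27% of all and 5.87% in CpG islands), at MLH3, XRCC2, XRCC5, XRCC6, WRN, UNG and MGMT. XRCC5 had 5 of them, starting 200, 179, 158, 137 and 74 bp before the TSS, the first 4 at even spacing. ETS matches were found in 8 (16.7%, against 6.14% and 8.64%), at BRCA2, PALB2, RAD50, MRE11, FANCD2, ERCC1, ERCC3 and OGG1. Within 100 bp of the summit of the 46 genes with a promoter peak, the counts were lower for E2F and NRF1. They were 4 for E2F (8.70%, against 2.97% of protein-coding genes with a peak) and 3 for NRF1 (6.52%, against 4.58%). For ETS the count was 7 (15.2%, against 7.30%). CRE matches were found in PMS2, EXO1, RAD51C and XRCC2 (4 genes, 8.33%, against 2.69% and 3.61%).

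CCAAT was found in 21 promoters (43.8%, against 36.1%) and the GC box in 33 (68.8%, against 61.3% of all and 80.5% of those in CpG islands). Within 100 bp of the summit, CCAAT was found at 25 of the 46 genes with a peak (54.3%, against 32.0%). The GC box was found there at 26 (56.5%), below the 70.1% of protein-coding genes with a peak. AP-1 matches were found in 0 of 48 repair promoters, against 3.57% of all protein-coding promoters and 1.90% of those in CpG islands. With 250 bp to either side of the TSS the count was 2 (4.17%), against 4.84%. Genes with an E2F or NRF1 match had peaks of all heights. MSH3 and MLH3 had no promoter peak and XRCC5 and FANCD2 were among the faintest, whereas EXO1 was the second highest and WRN and MGMT were above the upper quartile of protein-coding genes.

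**Figure D4:**
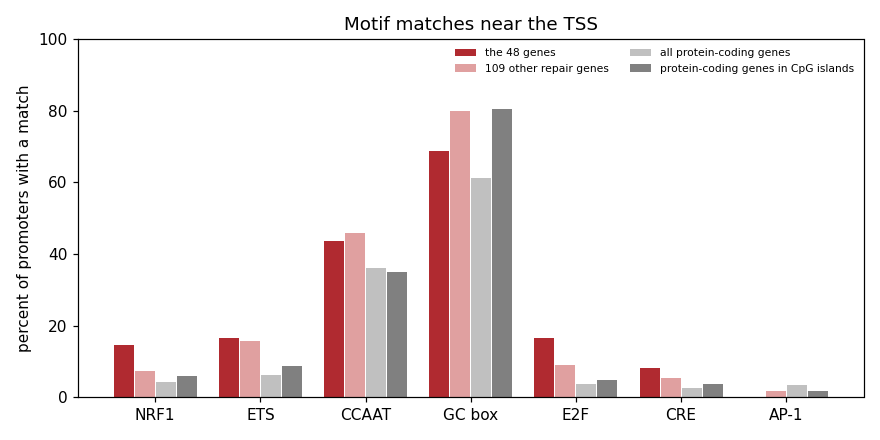
Percent of promoters (vertical axis) with at least 1 match to each of 7 motifs from 250 bp before to 50 bp after the TSS. Bars give the 48 repair genes, 109 other repair genes, all protein-coding genes and those in CpG islands, and for E2F they stand at 16.7%, 9.17%, 3.71% and 4.89%.

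The XRCC2 promoter is shown because it held an NRF1, a CRE and an E2F match, the E2F match lying 21 bp after the TSS and outside the stretch printed. The stretch runs from 250 to 53 bp before the TSS (chr7:152676194-152676391, hg38, minus strand), and capitals mark CRE and then NRF1.
XRCC2: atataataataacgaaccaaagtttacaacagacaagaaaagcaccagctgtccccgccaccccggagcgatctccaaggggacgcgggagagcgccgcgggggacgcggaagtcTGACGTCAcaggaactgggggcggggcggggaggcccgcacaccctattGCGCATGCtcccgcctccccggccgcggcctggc

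Away from the start sites, 9 of the 48 genes (18.8%) held a region with a peak of both replicates inside the gene and more than 1 kb from every annotated TSS of that gene, against 18.6% of all protein-coding genes. These were MSH3, NBN, RAD51B, XRCC4, XRCC5, ERCC1, OGG1, UNG and MGMT, with 16 regions in all, and every summit was intronic. RAD51B, which spans 910 kb, had 4 of them, at 318 to 876 kb from the TSS, and the one with the highest mean had a fold enrichment of 6.58 and 11.9. The farthest of the 4 lay within 1 kb of the TSS of an unnamed gene. XRCC4 had 3 regions. MGMT had 2, at 65 and 156 kb, with 5.72 and 4.30 at the nearer one. The 2 regions of ERCC1 lay 32.0 and 45.5 kb upstream of the canonical TSS in replicate 1, within longer transcripts of the gene. The region in OGG1 was at the promoter of CAMK1 and that in NBN at the promoter of DECR1, so both belong to other genes. XRCC5 and UNG had 1 region each, of 4.16 and 6.57 and of 5.54 and 7.25, the latter near an unnamed gene. MSH3 had 1 faint region of 3.98 and 4.53, 82 kb into the gene.

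An intronic region of XRCC4 was the tallest of these. It lay 18.6 kb downstream of the XRCC4 TSS in replicate 1 and 18.5 kb in replicate 2. The heights were 20.3 and 23.1, from 116 and 117 fragments. Among the summits compared, only the promoter peak of XRCC4 itself exceeded it in both replicates. It held 2 AP-1 matches within 100 bp of the summit. Single AP-1 matches in the same window were found in the regions of MSH3 and ERCC1 (the nearer one) and in the farthest regions of RAD51B and XRCC4. The share of AP-1 matches in gene-body regions of all protein-coding genes was not measured. Whether such matches are more frequent in the repair genes was therefore not tested. Within 100 bp of the promoter summits, 0 of 46 repair genes with a peak had an AP-1 match, against 2.66% of protein-coding genes with a peak. The reference around the summit (chr5:83096044-83096164, hg38, plus strand) contains no annotated exon and is shown with the AP-1 matches in capitals.
XRCC4 intronic summit: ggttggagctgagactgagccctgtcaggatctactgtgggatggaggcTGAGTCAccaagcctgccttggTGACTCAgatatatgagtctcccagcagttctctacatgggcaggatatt

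The other DNA repair genes gave a similar picture for promoter peaks. Of 109 such genes from the same and neighbouring pathways, 92 had a promoter peak in both replicates (84.4%, interval 76.4 to 90.03), 8 in 1 replicate and 9 in neither. Their median fold enrichment was 9.20 ± 1.08 (SD, n = 2), against 10.8 ± 1.79 for the 48 genes, so the medians differed by less than the larger spread. That spread includes the shift between the libraries. By replicate the medians were 8.44 and 9.97 against 9.53 and 12.1, the same direction in each. The highest were CCNH, the cyclin of the TFIIH kinase (26.7 and 22.0), CETN2, a partner of XPC (21.4 and 18.8), and POLK, a translesion polymerase (18.9 and 16.7). CCNH lies in the same stretch of chromosome 5 as XRCC4. Those without a peak included the meiotic gene MSH4, the lymphoid polymerase gene DNTT, the clamp-loader subunit RFC1, RPA3, MNAT1, NEIL1, MPG and POLB. RPA3 had a peak in both replicates at another of its start sites. Motif matches were less frequent in the 109 genes for E2F (9.17%, against 16.7%) and NRF1 (7.34%, against 14.6%). For ETS the shares were close (15.6%, against 16.7%).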

How the data were processed

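ATAC-seq peak lists of 2 B2B replicates were used. The authors mapped reads to hg38 with Bowtie2 2.4.4, removed duplicates with their own code and called peaks for each replicate with MACS2 2.2.7.1; SAMtools 1.13 is also named in the submitters' processing notes. The Tn5 shift, the treatment of mitochondrial reads and the q limit are not given in the sources used here. The deposited fold enrichment is a linear ratio to the local background, and the deposited −log10 p and −log10 q are MACS2 values. The deposited score repeats the −log10 q, so it was left aside.

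Only the autosomes, X and Y were used, with 28735 peaks in replicate 1 and 36162 in replicate 2. Promoters spanned 1 kb before to 1 kb after the TSS of each canonical GENCODE 44 transcript. CpG islands required a GC content of at least 50% and an observed over expected CpG ratio of at least 0.6 within 500 bp of the TSS. Fragments at a summit were solved from fold enrichment and −log10 p within 0.01 and came out whole for 100% of the gene peaks. The scripts were tested on simulated data. Intervals are Wilson intervals at 95% and cover counting error only. Python 3.11.15, numpy 2.4.6, scipy 1.17.1, pysam 0.24.0 and matplotlib 3.10.9 were used.

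The genes and lists were chosen with earlier results of these data known. All 48 genes were named, and of the 109 other repair genes those without a peak (1 of them is not reported here) and the 3 highest. Alternatives were windows of 500 bp and 3 kb, a stricter −log10 q of 5 or more, lists cut to the same length by strength, placement by summit, the TSS of any transcript, other neighbour distances and motif windows, and each replicate alone.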

Additional observations from a re-analysis of the deposited data

How the results depend on the processing

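No paired analysis was possible because both replicates are of the same condition. Each count and median kept within 1.5 times or 1 SD of its value under the alternatives in 64 of 67 cases. The count of 41 of 48 genes cannot rise by 1.5 times, so it could pass that limit only by falling. The exceptions were motif counts. With 100 bp to either side of the summit in place of the window at the TSS, NRF1 matches were found at 3 genes instead of 7 and E2F matches at 4 instead of 8, and the shares of protein-coding genes with a peak were 4.58% and 2.97%. With 250 bp to either side of the TSS, AP-1 matches were found at 2 genes instead of 0, and these were CHEK2 and APEX1, named after their values were seen. The share of all protein-coding promoters in that window was 4.84%. The AP-1 matches reached past 50 bp after the TSS, where the first window ended. The window at the summit was shorter, and it left out MSH3 and MLH3, which had no promoter peak. In the window at the TSS, MSH3 held E2F matches and MLH3 held NRF1 matches. How far these account for the lower NRF1 and E2F counts was not tested. Using a single replicate gave 41 or 46 genes with a promoter peak, and the median fold enrichment was 9.53 or 11.3.

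Of 615 values for single genes under the alternatives, 4 moved. With a window of 3 kb, 43 of 48 genes had a peak in both replicates in place of 41, because MSH3 counted through the upstream peak that matches mitochondrial DNA and FANCD2 through a faint peak further upstream. With equal numbers of the strongest peaks FANCD2 had a peak in 0 replicates. With placement by summit CHEK1 had a peak in 0 replicates. The lists held no summit under 16 fragments in replicate 1 or 13 in replicate 2. With 2 replicates, an SD is itself imprecise.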

Other observations

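For the genes with a promoter peak in replicate 2 alone, the nearest peaks of replicate 1 lay outside the promoter. The nearest peak of replicate 1 to RAD51B lay 3.02 kb upstream, at the promoter of ZFYVE26. For XRCC6 it lay 31.1 kb upstream, at PMM1. FANCA had its nearest peak 57.2 kb upstream, at TCF25, and ERCC1 17.8 kb downstream, at POLR1G and PPP1R13L. FANCD2 had a faint peak of replicate 1 at 2.52 kb upstream, of fold enrichment 3.81 and 21 fragments.

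More than 1 promoter peak in both replicates was called for 7 of the 41 genes (17.1%), namely EXO1, XRCC3, PRKDC, FANCC, WRN, UNG and LIG3, against 15.1% of all protein-coding genes with peaks in both replicates.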
